A study of Rattus norvegicus with 6 samples.

Results

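A set of 7 genes of squamous identity and epithelial adhesion were followed in 3 rat esophageal tumor cell lines. They were galectin-7 (Lgals7), keratin 8 (Krt8), P-cadherin (Cdh3), alpha-catenin (Ctnna1), plakophilin 2 (Pkp2), Cd24 and dysadherin (Fxyd5), picked by gene symbol from the platform annotation. They are 7 of 3158 named genes, and their 15 clones and 30 spots are part of 8064 clones and 16128 spots on a rat cDNA array. The tumor lines were JB, Amy and JA, each labelled as a reflux induced esophageal tumor cell line. Each was hybridised against 1 shared control, a pool of equal parts of 2 cell lines from normal esophagus, once labelled with Cy5 and once with Cy3. Both arrays of a line carry the same RNA with the dyes exchanged, so a line counts as 1 replicate, and precision is limited by having 3 lines. How each line was cloned or passaged is not given in the sources used here. The genes were chosen with their ratios of line over pool already known, so those ratios are given as a description, with no p-value for any of the 7.

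The normal esophagus is lined by a stratified squamous epithelium, in which cells divide in the basal layer and flatten towards the lumen. Its cells are held together by adherens junctions, in which cadherins bind neighbouring cells and catenins tie them to actin, and by desmosomes, which anchor keratin filaments. Keratin 8 belongs to simple, one-layered epithelia, and galectin-7 to stratified ones. Reflux disease is known for replacing squamous by columnar epithelium in the lower esophagus.

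The deposited values were log ratios, taken here as log2, with the tumor line on top and the normal pool below. This direction is only likely, because it rests on the order of names in the sample titles. With the pool on top, every ratio and difference between lines given here would change its sign, and a rank counted from the lowest would be the same rank from the highest. Array medians lay between -0.15 and -0.05, and the 2 arrays of a line correlated at 0.815 to 0.888 over 7180 features. A feature is either a gene, averaged over all spots that carry its name, or a single unnamed clone. No spot intensities were used, so a ratio gives no level of either sample, and a very large one cannot be told from a bound set by a dim channel. In RNA from whole cultures, fewer cells of a type and less RNA per cell cannot be told apart. For the same reason the squamous identity of the lines and of the pool could not be checked by level, and a change in the lines cannot be told apart from a feature of the shared pool.

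Galectin-7, a lectin made by stratified epithelia, was far lower in all 3 lines than in the pool. In JB its log2 ratio was -6.53 with the line in Cy5 and -6.41 with the line in Cy3. In Amy it was -4.69 and -4.64, and in JA -6.47 and -6.21, in the same order of dyes. The Amy arrays stood apart from the other 4, with no overlap. The mean was -5.82 ± 1.01 (SD, n = 3 lines), a 56.6-fold lower ratio and the 21st lowest of 7180 features (21st highest with the pool on top).

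The 3 clones of galectin-7 did not give the same picture. In clone 1 the line means were -6.89 in JB, -4.18 in Amy and -6.64 in JA. In clone 2 they were -7.01, -3.92 and -6.81 in the same order of lines. Both clones had Amy as the least reduced line, by more than 2 log2 units. Clone 3 gave -5.51 in JB, -5.89 in Amy and -5.56 in JA, which are close to one another and put Amy lowest. Averaged over the lines the 3 clones were alike, at -5.90, -5.91 and -5.66.

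The disagreement was wide for a gene on this array. Amy minus JA was 2.46, 2.89 and -0.33 in the 3 clones, a range of 3.23. Among the 156 genes with at least 3 clones it was the widest, against a median range of 0.52. Clones 1 and 2 were each other's nearest of 8063 clones by root mean square difference over the 6 arrays (0.53). Clone 3 had clones 1 and 2 at ranks 72 and 87 among its neighbours, and stood at ranks 23 and 22 among theirs. Without clone 3, chosen for omission after its values were seen, the line means were -6.95 in JB, -4.05 in Amy and -6.73 in JA. The 2 spots of a clone differed by at most 0.69 on any array, less than the split between clones. All 3 clones carry the name through the platform annotation, and the identity of each insert was not tested.

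**Figure D1:**
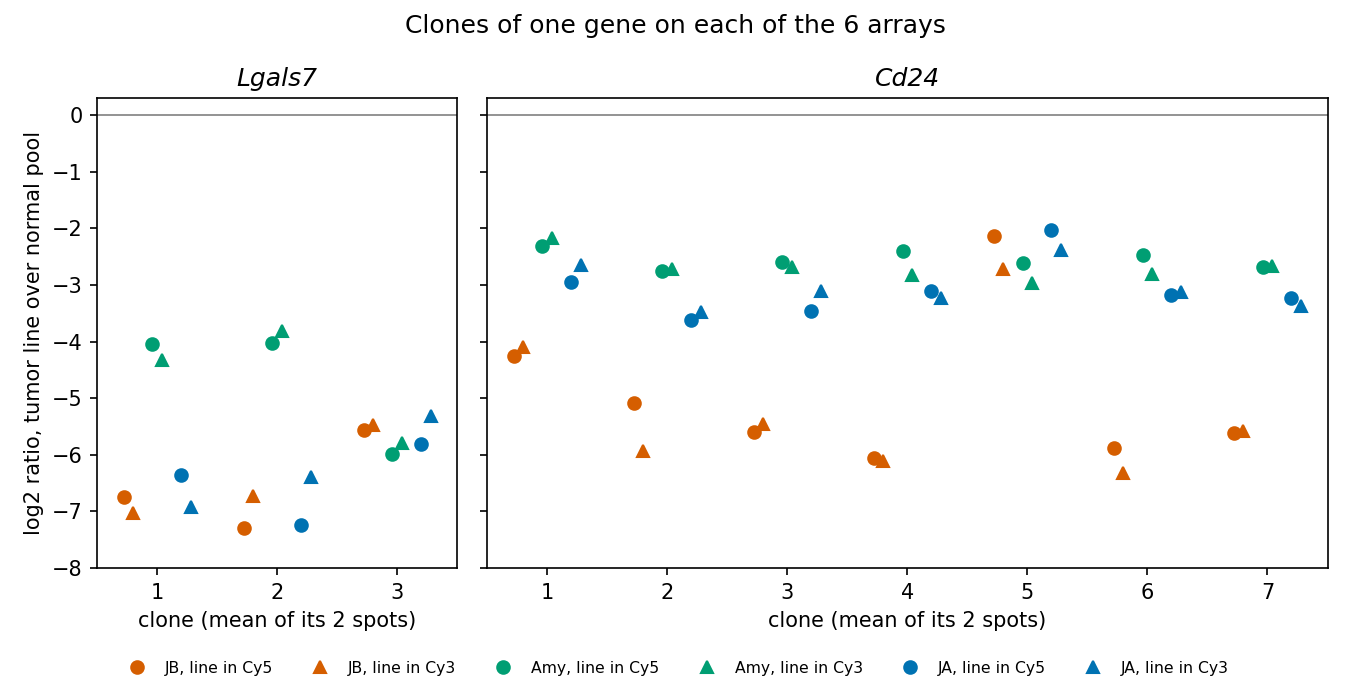
Log2 ratio of tumor line over normal pool (y axis) for each clone (x axis, mean of 2 spots) of Lgals7 and Cd24, with JB in orange, Amy in green and JA in blue, circles for the line in Cy5 and triangles for Cy3. Clone 3 of Lgals7 and clone 5 of Cd24 show little difference between lines, while the other clones separate Amy (Lgals7) or JB (Cd24) from the other lines.

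Start regions of 4 of the 7 genes are in the RefSeq promoter table of assembly GRCr8, and each is shown 5′ to 3′ from 250 bases before to 50 bases after an annotated transcript start, to set the strongly lowered genes beside the near-level and the line-dependent one. Capitals mark 3 motifs searched on both strands. These were the E-box bound by the repressors Snail and ZEB (CAGGTG, or CACCTG on the other strand), the GC box (GGGCGG or CCGCCC) and the TATA box (TATAAA or TTTATA). The Lgals7 window is chr1:93277524-93277823 (+), the Cd24 window chr20:48656227-48656526 (+), the Krt8 window chr7:135010290-135010589 (-) and the Fxyd5 window chr1:95404673-95404972 (-).
Lgals7: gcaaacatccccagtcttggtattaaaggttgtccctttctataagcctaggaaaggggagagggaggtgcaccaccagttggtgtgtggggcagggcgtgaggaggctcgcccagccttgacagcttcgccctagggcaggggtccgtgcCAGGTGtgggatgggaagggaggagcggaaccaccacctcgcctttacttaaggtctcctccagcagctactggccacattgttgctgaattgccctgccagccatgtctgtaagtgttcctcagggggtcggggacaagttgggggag
Cd24: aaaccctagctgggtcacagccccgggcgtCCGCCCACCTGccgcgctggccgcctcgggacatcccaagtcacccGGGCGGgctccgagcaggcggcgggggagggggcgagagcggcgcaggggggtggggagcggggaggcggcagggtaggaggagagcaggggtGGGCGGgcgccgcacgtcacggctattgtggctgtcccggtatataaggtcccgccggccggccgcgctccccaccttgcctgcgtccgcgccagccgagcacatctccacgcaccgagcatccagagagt
Krt8: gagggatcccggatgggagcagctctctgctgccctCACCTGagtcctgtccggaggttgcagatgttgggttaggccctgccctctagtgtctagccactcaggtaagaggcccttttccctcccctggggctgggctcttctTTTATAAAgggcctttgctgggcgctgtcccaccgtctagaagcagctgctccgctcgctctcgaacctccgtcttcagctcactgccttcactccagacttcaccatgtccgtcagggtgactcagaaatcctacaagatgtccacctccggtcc
Fxyd5: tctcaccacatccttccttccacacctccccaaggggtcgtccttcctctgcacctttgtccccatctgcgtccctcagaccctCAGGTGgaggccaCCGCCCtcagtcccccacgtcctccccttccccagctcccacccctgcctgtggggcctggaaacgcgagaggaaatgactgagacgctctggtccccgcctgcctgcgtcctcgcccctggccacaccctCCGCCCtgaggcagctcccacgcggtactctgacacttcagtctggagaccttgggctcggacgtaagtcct
All 4 windows held 1 such E-box, against 18.8% of the 33469 windows of this length in the table. It began 99 bases before the start in Lgals7, 215 in Cd24, 214 in Krt8 and 166 in Fxyd5. The Cd24 E-box overlapped 1 of the 3 GC boxes of that window. Fxyd5 held 2 GC boxes, a motif found in 33.1% of windows, and Lgals7 and Krt8 none. The TATA matches of Krt8 are 2 overlapping readings of 1 palindrome, a motif found in 14.2% of windows. A second Fxyd5 window in the table, downstream of the first, held none of the 3 motifs. The motifs were chosen with the ratios of the genes known and the windows in view, and a match is a description of letters and not of a bound site.

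Keratin 8, the type II keratin that pairs with keratin 18 in simple epithelia, stayed near the pool. The JB arrays stood highest, at 1.09 with the line in Cy5 and 0.62 in Cy3. Amy gave 0.38 and 0.14, and JA 0.50 and -0.28. The JB arrays lay above the other 4 without overlap, Amy and JA overlapped, and only the JA array in Cy3 was below 0. The mean was 0.41 ± 0.40 (SD, n = 3 lines). The difference between dyes in JA, 0.77, was larger than the whole range between line means, 0.75. The gene is measured by 1 clone.

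P-cadherin, a classical cadherin of basal epithelial layers, was the steadiest of the 7. Its log2 ratio in JB was 1.91 with the line in Cy5 and 2.15 in Cy3, in Amy 2.17 and 2.03, and in JA 1.81 and 1.84. The 6 arrays ran from 1.81 to 2.17, the JB and Amy arrays overlapped, and the JA arrays lay just below both. The mean was 1.98 ± 0.15 (SD, n = 3 lines), or 3.96-fold, the 87th highest of 7180 features (87th lowest with the pool on top). Its SD between lines exceeded that of 26.6% of features, whereas those of Lgals7, Cd24 and Fxyd5 exceeded 98.3%, 99.3% and 99.8%.

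Alpha-catenin, which links the cadherin complex to actin, was higher than the pool in every line and most so in JB. JB gave 1.19 in Cy5 and 1.18 in Cy3, Amy 0.45 and 0.49, and JA 0.42 and 0.61. The JB arrays lay above the other 4 without overlap, while Amy and JA overlapped. The mean was 0.72 ± 0.40 (SD, n = 3 lines).

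Plakophilin 2, an armadillo protein of the desmosomal plaque, was modestly lower in all 3 lines. JB gave -0.76 in Cy5 and -1.25 in Cy3, Amy -0.29 and -0.81, and JA -0.58 and -0.95. The lines overlapped, and within each line the Cy3 array was the lower one. The mean was -0.77 ± 0.23 (SD, n = 3 lines). Cdh3, Ctnna1 and Pkp2 were each measured by 1 clone, so no second clone bears on them.

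Cd24, a small sialoglycoprotein held in the cell membrane by a lipid anchor, was lower in all lines and lowest in JB. JB gave -4.95 in Cy5 and -5.17 in Cy3, Amy -2.55 and -2.69, and JA -3.08 and -3.05. The JB arrays lay below the other 4 without overlap, and Amy lay above JA. The mean was -3.58 ± 1.30 (SD, n = 3 lines), a 12.0-fold lower ratio and the 117th lowest of 7180 features (117th highest with the pool on top).

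Cd24 was measured by 7 clones, the most of these genes. In 6 of them JB was the lowest line, at means of -6.10 to -4.17, against -2.74 to -2.24 in Amy and -3.54 to -2.80 in JA. Clone 5 alone gave near-equal lines, at -2.43 in JB, -2.79 in Amy and -2.20 in JA. JB minus Amy accordingly ran from -3.47 to -1.94 in the 6 clones and was 0.36 in clone 5. This range of 3.83 was the widest of the 156 genes with at least 3 clones. Clones 2, 3, 4, 6 and 7 had one another as their 4 nearest of 8063 clones. Clone 1 kept the order of lines at smaller sizes, with -4.17 in JB, -2.24 in Amy and -2.80 in JA. Without clone 5, a choice made after its values were seen, JB averaged -5.50, Amy -2.59 and JA -3.21. The identity of the inserts was not tested here either.

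Fxyd5 encodes dysadherin, a membrane protein that binds the sodium pump and is named for weakening cadherin adhesion, and it went opposite ways in the lines. In JB the log2 ratio was 1.10 with the line in Cy5 and 0.32 in Cy3, both above the pool. In Amy it was -2.20 and -2.97, and in JA -1.97 and -2.33, all below the pool. The JB arrays lay above the other 4 by more than 2 log2 units. The mean over lines, -1.34 ± 1.79 (SD, n = 3 lines), describes none of the 3. Its spots ran from 0.21 to 1.31 in JB and from -3.30 to -1.82 in the other lines. The pattern of JB above 0 and both other lines below 0 on every array was held by 145 features, or 2.02% of 7180, and its mirror image, with JB below 0 and both others above, by 80 features, or 1.11%. By JB minus the mean of Amy and JA, 3.08, Fxyd5 ranked 7th highest (7th lowest with the pool on top), and 3 named genes exceeded it.

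**Figure D2:**
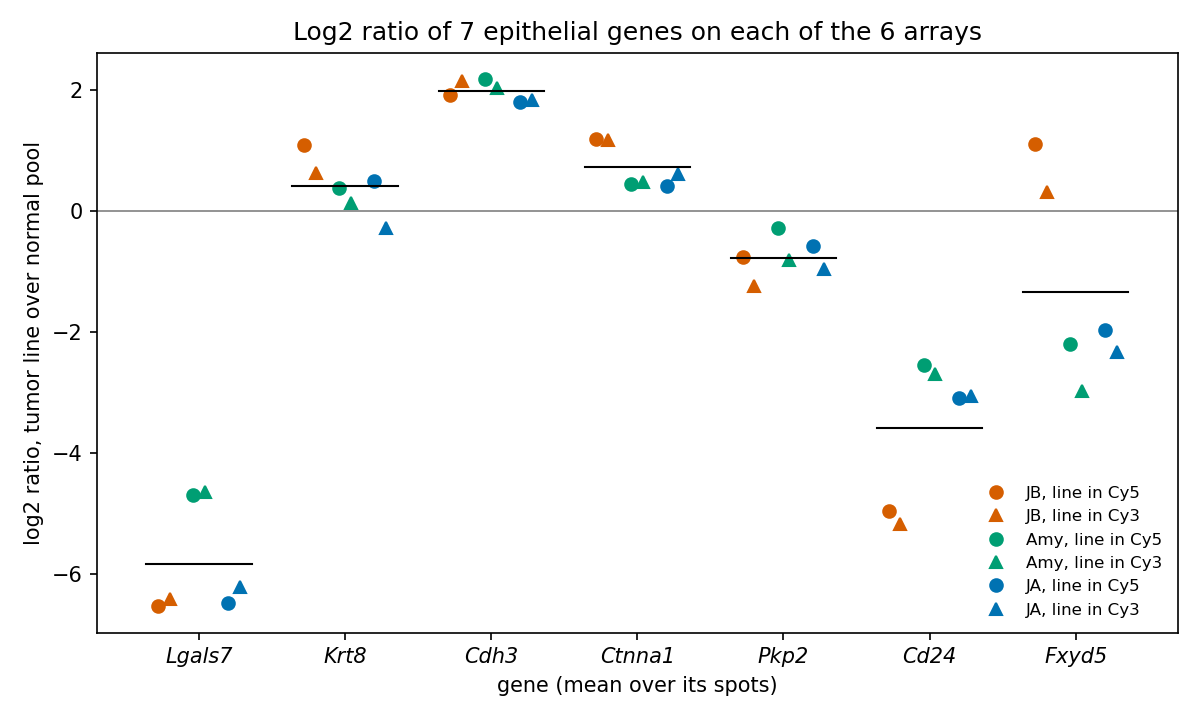
Log2 ratio of tumor line over normal pool (y axis) for each gene (x axis) on each array, with JB in orange, Amy in green, JA in blue, circles for the line in Cy5, triangles for Cy3 and a black bar for the mean of 3 lines. Lgals7 and Cd24 are below 0 in all lines, Cdh3 sits near 2 in all, and Fxyd5 is above 0 only in JB.

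In JB, 4 of the 7 genes were past 1 on both arrays, against 17.3% of all features. They were Lgals7, Cdh3, Ctnna1 and Cd24. In Amy 4 were (Lgals7, Cdh3, Cd24 and Fxyd5; 17.0% of features), and in JA the same 4 names (21.0%). In the fit of all 3 lines, with limma at an adjusted p under 0.05, 2 of the 7 were higher (20.7% of features) and 3 lower (32.8%). The genes were chosen with this contrast known, so these counts say nothing beyond the choice.

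Differences between lines were taken within a dye orientation, where both share the pool and the dye, and had no replicate and no test. They are built from the same ratios that were known when the genes were chosen. The counts and ranks of the 7 genes are therefore a description, and the shares of features beside them are no test. A gene was set apart where the difference was at least 1 in the same direction in both orientations. JB was set apart from JA in Cd24, by -1.87 in Cy5 and -2.12 in Cy3, and in Fxyd5, by 3.07 and 2.65. That is 2 of 7 genes, against 3.68% of features. JB was set apart from Amy in 3 of 7, against 4.19%. These were Lgals7 by -1.84 and -1.76, Cd24 by -2.40 and -2.48, and Fxyd5 by 3.30 and 3.30. Amy was set apart from JA in 1 of 7, Lgals7, by 1.78 and 1.56, against 1.56% of features. JB minus Amy was the 10th lowest of 7180 features in Cd24 and the 8th highest in Fxyd5, and the ends change places with the pool on top. Krt8, Cdh3, Ctnna1 and Pkp2 were set apart in no pair. The largest of their differences was 0.90, for Krt8 in JB minus JA in Cy3. Clone 3 of Lgals7 and clone 5 of Cd24 did not share these differences, with under 0.6 between any 2 of their line means.

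**Figure D3:**
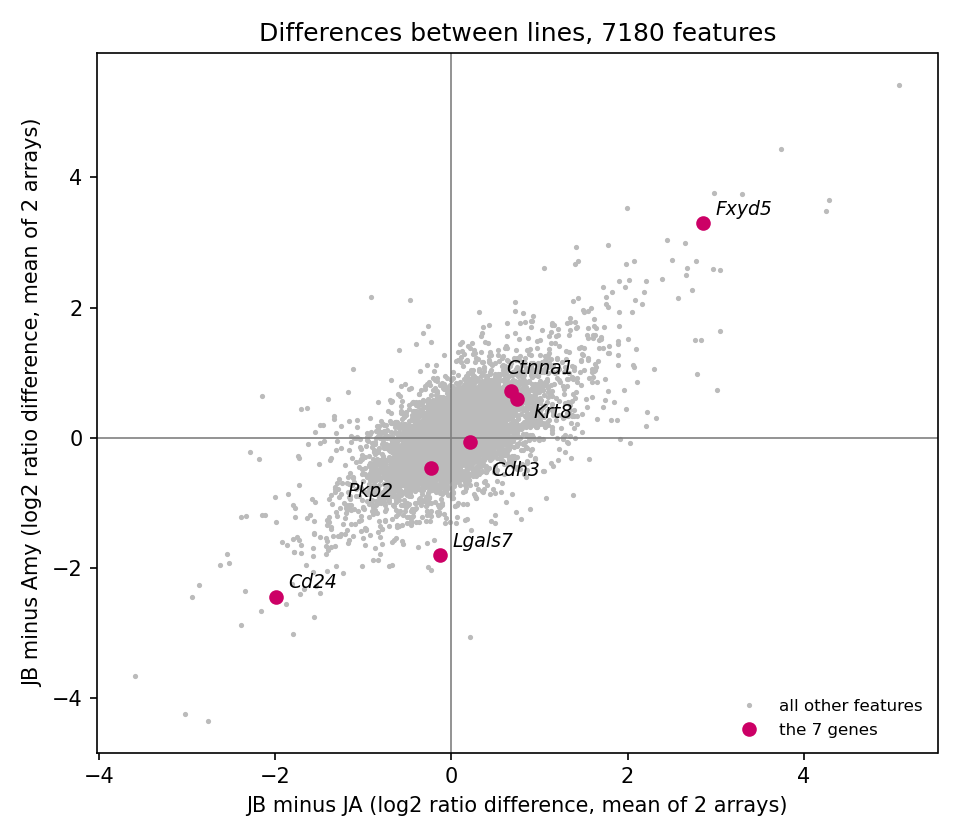
Difference of log2 ratio, JB minus JA (x axis) and JB minus Amy (y axis), for 7180 features in grey and the 7 genes in magenta, each the mean of 2 arrays. Fxyd5 lies at 2.86 and 3.30 and Cd24 at -1.995 and -2.44, outside the main cloud, and Cdh3 lies near the centre.

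The difference between dye orientations did not enter the choice of genes and was tested with limma over 7180 features, with 3 lines as replicates. None of the 7 genes passed after Benjamini-Hochberg adjustment, where 0.501% of features did. In simulated data this test recovered 0% of differences of 0.5 and 56% of differences of 1, with 50 features changed at each size. The simulated data gave 117 calls against 36 in the real data, so these rates are only a rough guide. Failing to pass therefore does not show that a gene had no dye difference of such a size. Without adjustment 3 of 7 had a p under 0.05, as did 35.3% of features. Fxyd5 read higher with the line in Cy5 by 0.64 ± 0.25 (SD), in 3 of 3 lines (limma adjusted p = 0.0660). Pkp2 did so by 0.46 ± 0.08 in 3 of 3 lines (limma adjusted p = 0.0672) and Krt8 by 0.49 ± 0.27 in 3 of 3 (limma adjusted p = 0.0942). In JA the difference of Krt8, 0.77, exceeded its mean ratio of 0.11, and in Amy that of Pkp2, 0.52, was close in size to its mean of -0.55. For the other 4 genes the mean differences lay between -0.14 and 0.11, with adjusted p between 0.373 and 0.825 in the same limma fit. The number of features that pass depended strongly on the processing. With quantile normalised arrays 440 passed, Fxyd5 among them (adjusted p = 0.0477). With features past a dye difference of 1 left out of the fit 1106 passed, and 3 of the 7 genes were among them, Fxyd5 (adjusted p = 0.0225), Pkp2 (0.0284) and Krt8 (0.0390). That filter acts on the same difference that is then tested, so these calls are a description and no further evidence of a dye difference.

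**Figure D4:**
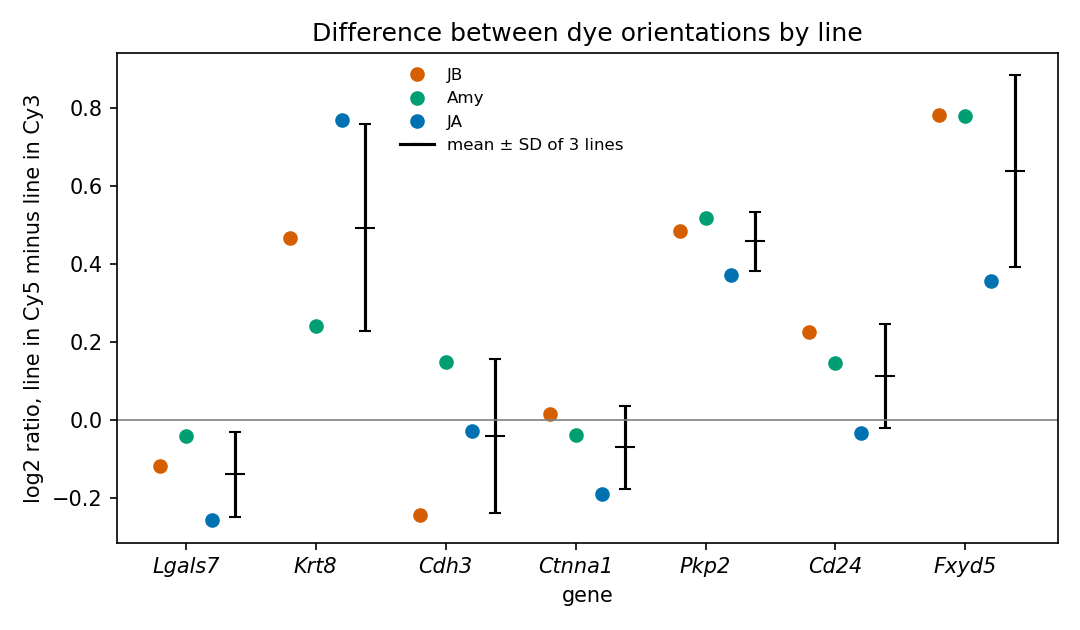
Log2 ratio with the line in Cy5 minus the same line in Cy3 (y axis) for each gene (x axis), with JB in orange, Amy in green, JA in blue and black bars for the mean ± SD of 3 lines. All 3 lines lie above 0 for Krt8, Pkp2 and Fxyd5, and around 0 for Cdh3, Ctnna1 and Cd24.

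Few other genes of these structures had a named clone. Lists of squamous differentiation, adherens junction, desmosome, simple epithelium, tight junction, FXYD proteins with the sodium pump, and galectins held 24 further measured genes. In limma 7 of the 24 were higher and 7 lower than the pool, against 20.7% of all features higher and 32.8% lower. The median was 0.15, against -0.12 for all features. With a spread given to the pool 5 passed, without JA 6, without Amy 9, and without moderated variances 1 (Ctnnb1). In simulated data the main test against the pool recovered 4% of changes of 0.5 and 52% of changes of 1. Those data gave 126 calls against 3843 in the real data, so the rates are only a rough guide. Failing to pass therefore does not show that a gene was unchanged. The other desmosomal genes on the list, and keratins 5 and 14, had no spot that carried their symbol alone.

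Of the squamous list, 3 of 46 genes were measured, Lgals7 among them. Annexin A1 (Anxa1), a membrane-binding protein abundant in squamous cells, was higher at 1.39 ± 0.38 (SD, n = 3 lines; limma adjusted p = 0.00292), with 1.60 in JB, 1.62 in Amy and 0.95 in JA. The protease inhibitor cystatin B (Cstb) was lower at -0.68 ± 0.46 (limma adjusted p = 0.0364), with -0.84 in JB, -0.16 in Amy and -1.03 in JA. Its call was lost without JA (0.181), without JB (0.0742) and with centred arrays (adjusted p = 0.065). Its 3 clones stood at -0.87, -0.99 and -0.17, with Amy the least reduced line in clones 1 and 2 (-0.13 and -0.31) and JB in clone 3 (0.04). Of the simple epithelial list, keratin 7 (Krt7) was lower at -0.76 ± 0.38 (limma adjusted p = 0.0177), a call lost without JA (0.111), Amy (0.0938) or the JB array in Cy5 (0.0595), and the protease inhibitor Spint2 stood at 0.27 ± 0.39. Of the galectins, the galectin-like protein Lgalsl was lower at -1.38 ± 0.21 (limma adjusted p = 0.00139) and the galectin-binding glycoprotein Lgals3bp stood at 0.13 ± 0.62.

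In the adherens junction list, 2 of 6 further genes were higher, 2 lower and 2 did not pass, against 20.7% of all features higher and 32.8% lower. Cdh13, a cadherin held by a lipid anchor, was higher at 1.27 ± 0.33 (SD, n = 3 lines; limma adjusted p = 0.00302). Beta-catenin (Ctnnb1) was higher at 0.62 ± 0.05 (limma adjusted p = 0.00838), but its 2 clones stood at 0.07 and 1.16, and the call was lost without JA (0.051). Ctnnbip1, an inhibitor of the binding of beta-catenin to its transcription partners, was lower at -2.04 ± 0.68 (limma adjusted p = 0.00327). It was lowest in JB, at -2.82, with -1.53 in Amy and -1.77 in JA, and its clones stood at -2.59 and -1.49. The actin crosslinker Actn4 was lower at -0.71 ± 0.33 (limma adjusted p = 0.0168), from 1 clone at -2.15 beside others at 0.05 and -0.04. With the line in Cy3 the gene read -0.61 in JB, -2.65 in Amy and -1.86 in JA. With the line in Cy5 the gene read -0.09, 1.07 and -0.13 in the same order of lines. It no longer passed on the arrays in Cy5 alone (0.426), without JA (0.0985), without Amy (0.0852) or with the replicate number as a block (adjusted p = 0.0582). Leaving out the JA, JB or Amy array in Cy3 also ended its call, at adjusted p of 0.107, 0.0554 and 0.853. Its relative Actn1 stood at 0.42 ± 0.35, and passed with the block (adjusted p = 0.0289), with centred arrays (0.0409) and without the Amy array in Cy3 (0.0487), and Zyx stood at -0.07 ± 0.27.

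Of 7 tight junction genes, 1 was higher, 1 lower and 5 did not pass, against 20.7% and 32.8% of all features. The polarity protein Pard6b was higher at 0.56 ± 0.37 (SD, n = 3 lines; limma adjusted p = 0.0441) and its partner Pard3 lower at -0.55 ± 0.27 (limma adjusted p = 0.0285). Both calls were lost without JA, at adjusted p of 0.194 and 0.147, and that of Pard3 with centred arrays (0.0605). The call of Pard6b was also lost without Amy (0.153) and that of Pard3 without JB (0.0735) or the JB array in Cy5 (0.0544). Pard6b was also lost without the JB or JA array in Cy3 (0.135 and 0.0597) or the Amy array in Cy5 (0.114). The scaffold protein Tjp1 stood at -0.48 ± 0.50, and passed without JB (adjusted p = 0.00845) and with the replicate number as a block (0.043). Claudin 1 (Cldn1), a sealing protein of the junction, was above the pool in JB at 1.34 and below it in Amy at -0.11 and in JA at -0.55.

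Of the FXYD and sodium pump list, 3 of 5 further genes were higher, 1 lower and 1 did not pass, against the same 20.7% and 32.8%. The pump subunit Atp1b3 was higher at 1.68 ± 0.42 (SD, n = 3 lines; limma adjusted p = 0.00205). Fxyd3 and Fxyd2, regulators of the pump, were higher at 0.84 ± 0.55 and 0.52 ± 0.25 (limma adjusted p = 0.0284 and 0.0294). The call of Fxyd3 was lost without JB (0.058), Amy (0.133) or the JA array in Cy5 (0.0557). That of Fxyd2 was lost without JA (0.149), Amy (0.126) or the Amy array in Cy5 (0.0615). Fxyd4 was lower at -1.80 ± 1.25 (limma adjusted p = 0.0243), a call lost without JA (0.148) or Amy (0.117). As for Fxyd5, its highest line was JB, at -0.37, with -2.68 in Amy and -2.35 in JA. Fxyd6 stood at 0.16 ± 0.21.

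**Figure D5:**
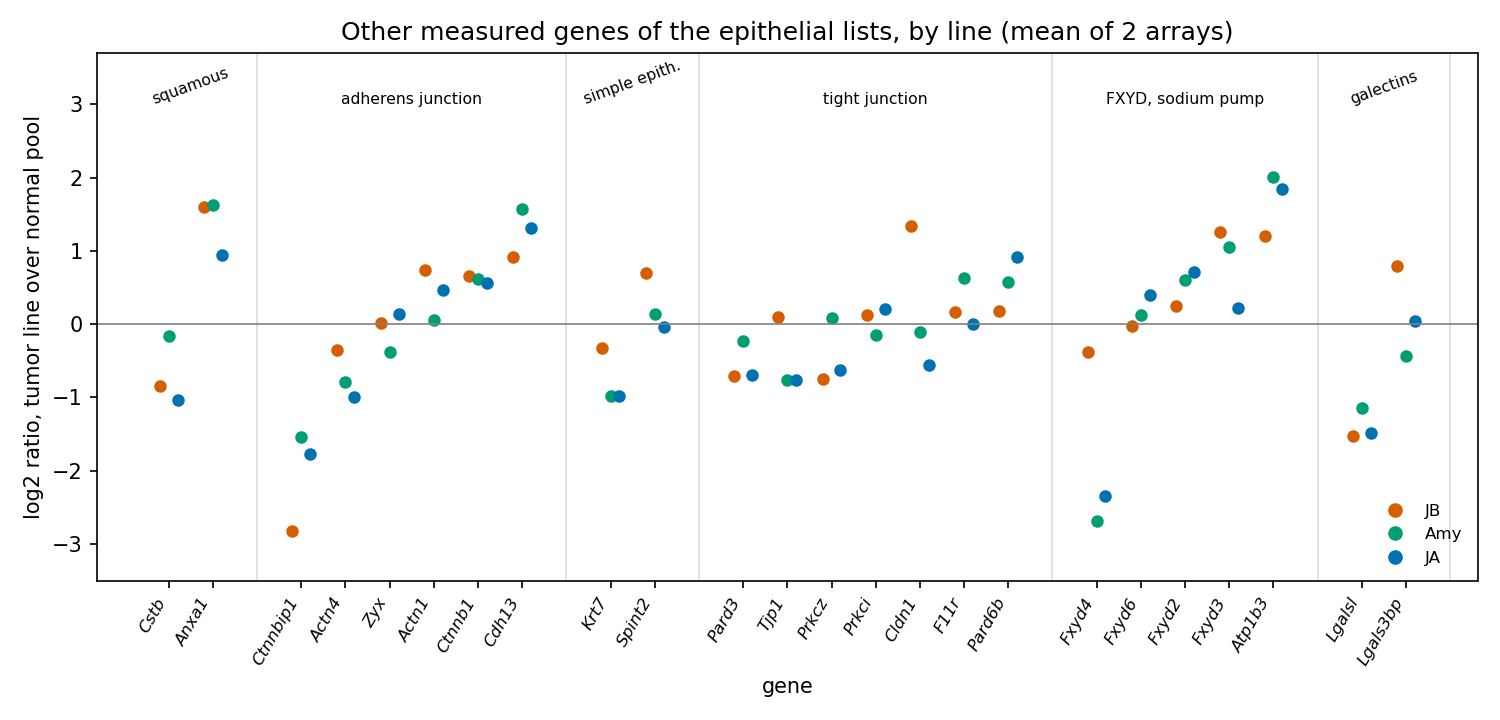
Log2 ratio of tumor line over normal pool (y axis, mean of 2 arrays) for the 24 other measured genes of the epithelial lists (x axis, each gene once, grouped by list), with JB in orange, Amy in green and JA in blue. Genes of every list with more than 2 genes lie on both sides of 0, and Cldn1 and Fxyd4 have JB well above the other lines.

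The genes nearest over the 6 arrays were found among 3157 others by root mean square difference, which weighs level as well as pattern. For Lgals7 they were Bcl10, a signaling adaptor, at 0.17, and the ectonucleotidase Entpd1, at 0.88. Bcl10 stood at -6.52 in JB, -4.90 in Amy and -6.24 in JA, and was the second nearest clone to Lgals7 clones 1 and 2. For Cd24 they were the syndecan Sdc2 at 0.44 and the matrix protein Sparc at 0.70, both lowest in JB, at -4.67 and -5.19. For Fxyd5 they were Pnkd at 0.56 and the receptor tyrosine kinase Axl at 0.56, both above the pool only in JB, at 0.46 and 0.66. For Cdh3 they were glutathione reductase (Gsr) at 0.29 and sepiapterin reductase (Spr) at 0.29. For Krt8 they were Babam2 at 0.14 and Khsrp at 0.14, for Ctnna1 Prdx1 at 0.12 and Washc3 at 0.16, and for Pkp2 Ttc5 at 0.10 and Fbxw11 at 0.11. Some of these are near in level and not in pattern. The correlation over the 6 arrays was 0.27 for Lgals7 with Entpd1, and -0.13 and 0.35 for Cdh3 with Gsr and Spr. For all the other pairs it was 0.92 or more.

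Markers of other cell types were mostly lower than the pool, where 32.8% of all features were lower and 20.7% higher. Of 11 measured fibroblast markers 9 were lower and 1 higher, with a median of -4.18. Of 9 leukocyte markers 8 were lower and 1 higher (median -3.57), and all 6 muscle and all 3 endothelial markers were lower (medians -2.16 and -1.53). Cd53, counted as lower, read above 0 with the line in Cy3, at 1.12 in JB, 0.25 in Amy and 0.81 in JA. With the line in Cy5 it read -2.52, -1.10 and -1.42 in the same order of lines. The lower calls of Cd53 and of Cd3e were each lost without any 1 line. Of 5 columnar markers 3 were lower and 1 higher (median -1.32). As these are ratios, no marker can be called at or near 0 in either sample, and no summed level is available. Their part in the lower ratios of Lgals7 and Cd24 was not tested.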

How the data were processed

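RNA of 3 tumor lines and 1 normal pool was measured on 6 two-colour cDNA arrays. The authors deposited a log ratio for every spot of every array, read here as a log2 ratio. Base, normalization, centring and spot filter are not stated in the labels or the file. Per the labels, the dyes were exchanged within each line. The arrays of a line correlated positively as deposited, so no sign was turned. Symbols came from the platform annotation: 8084 spots had 1 symbol, 40 several and 8004 none, and 8076 matched a RefSeq gene by identifier, with 0 symbols changed.

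Adjacent spots were averaged into clones, and genes into features. The 2 arrays of a line were averaged and the mean of 3 lines was tested against 0 with limma 3.58.1 in R 4.3.3 (intercept only, eBayes, Benjamini-Hochberg over 7180 features, threshold 0.05). The pool's own spread is left out of that test. The dye difference was tested in the same way, and both tests were tested on simulated data. P-values rest only on spread between these lines, with the variance of each feature moderated by eBayes towards that of all 7180 features. The replicate number is the dye orientation, and its differences correlated at 0.526 to 0.613 between lines, so the numbers pair the arrays.

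The 7 genes, the 12 gene lists and the motifs were chosen with earlier results of these data known. Named were the 7 genes and the 2 nearest to each by root mean square difference. Also named were, per list, up to 4 passing genes with 1 sign on all arrays and the largest means. All genes of lists with 6 or fewer measured were named too. Actn4, Pard6b, Actn1, Zyx, Tjp1, Cldn1 and Prkcz, as well as the clone neighbours, were added after their values were seen. Lists of other cell types are given as counts, and Cd53 and Cd3e of these were named after their values were seen. Sequences are from RefSeq (GRCr8). No low-value filter was applied. Alternatives were centred, scaled or quantile normalised arrays, single dyes, lines, arrays or clones left out, other variance models and thresholds. Figures used matplotlib 3.10.9 in Python 3.11.15.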

Additional observations from a re-analysis of the deposited data

Results flagged for a closer look

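Fxyd5 lay above the pool in JB, at a mean of 0.71, and below it in Amy (-2.59) and JA (-2.15), on both arrays of each line; the difference was not tested, since no line has a replicate. The other 3 genes of the epithelial lists with a split of this kind had both arrays of 1 line on the opposite side of 0 from all 4 arrays of the other lines. Cldn1 stood at 1.34 in JB, with -0.11 in Amy and -0.55 in JA. Lgals3bp stood at -0.43 in Amy, with 0.79 in JB and 0.04 in JA. Prkcz, a kinase of cell polarity, stood at 0.09 in Amy, with -0.75 in JB and -0.63 in JA. These differences were not tested either, and the values of 0.09 and 0.04 are below the median gap between the 2 spots of a clone, 0.099 to 0.135 by array. The split of Fxyd5 and Cldn1, with only JB above 0, was held by 2.02% of all features. For a split by Amy no such share was counted.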

How the results depend on the processing

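The mean ratio of each of the 7 genes kept its sign under all alternatives tried for it, and 122 of 124 such values moved by less than the SD between lines. The others were those of Pkp2, at -1.002 with the line in Cy3 alone and -0.54 in Cy5 alone. Some of the 122 could not have moved further. Leaving out 1 of 3 lines always moves a mean by less than that SD. The fit with the replicate number as a block returns the same mean, as does the median of a gene with 2 spots. The count is therefore a description and no measure of stability. Of 3843 features called against the pool, 1970 passed when the pool was given a spread, 1040 with unmoderated variances and 2290 at an adjusted p under 0.01; leaving out a line gave 2076 (without JA) to 3698, and leaving out an array 3306 to 3716. With the replicate number as a block the count was 4705, a fit that counts arrays as samples; among the 24 other epithelial genes the block changed the calls of Actn1, Actn4 and Tjp1. Of those 24 genes, 14 passed, against 5 with a spread for the pool, 1 unmoderated and 6 (without JA), 9 (without Amy) or 12 (without JB); leaving out an array gave 12 to 14. The 36 features with a dye difference became 313 with scaled arrays, 440 with quantile normalization, 1106 with features past a difference of 1 left out, and 0 unmoderated, at 0.01 or without any 1 line. By correlation with a like range, 1 of the 14 nearest genes was shared. No intensities were used, so signal over background is unknown.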
